A study of Oryza sativa with 6 samples.

Results

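Auxin genes of 3 families, Aux/IAA, ARF and GH3, were examined in developing rice grains of the mutant gif1 and of wild-type Zhonghua11. The members were all genes whose symbol or synonym in the RefSeq gene table is IAA, ARF or GH3. followed by a number, with or without the prefix Os, and which have at least 1 probe set that the platform annotation assigns to a single gene. The rule matched 60 genes, of which 52 had such a probe set (26 Aux/IAA, 17 ARF and 9 GH3), out of 17905 genes so covered on the array. The rule itself uses names and no measured value, but the members were chosen with earlier results of these data known. GH3.4 and IAA18 were named in advance. The annotation gives a symbol and no description, so family membership rests on the names alone, and 8 of the 60 also carry a number that another gene bears. For these the name that keeps the numbering in gene order is used.

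Transcripts of caryopses (young grains) harvested 7 days after flowering were measured on 6 oligonucleotide arrays with a single label. The 3 gif1 arrays and the 3 wild-type arrays were each described as biological repeats, with no statement of how many plants or grains went into a sample. The mutant is a single line with a lesion in GIF1, a cell-wall invertase that splits sucrose as it enters the grain. Zhonghua11, a japonica cultivar, was labelled as its wild type. In such whole grains, fewer cells of a type and less RNA per cell cannot be told apart.

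Auxin acts by removing repressors. Aux/IAA proteins bind ARF transcription factors, though not all of them, and hold the bound ones inactive at auxin-responsive promoters. Auxin joins an Aux/IAA to its TIR1/AFB receptor, the Aux/IAA is degraded, and the bound ARF is freed to act. Many Aux/IAA and GH3 genes are themselves induced by auxin, and GH3 enzymes close the loop by joining the hormone to amino acids, which stores or disposes of it. In cereal grains auxin rises as the endosperm fills.

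Some features of the arrays moved with the genotype. The median signal over all probe sets was 67.5 to 72.6 on gif1 arrays and 83.7 to 103.6 on wild-type arrays, while the trimmed mean was 500.1 on each. The poly-A control RNAs, added before labelling, had geometric mean signals of 332.3 to 382.2 on gif1 arrays and 766.7 to 2093 on wild-type arrays. The hybridization spikes, used below for spike scaling, had geometric means of 4058.7 to 4908.6 on gif1 arrays and 5914.6 to 6481.0 on wild-type arrays. All 6 genes listed as starchy endosperm markers were present, with summed signals of 255624 to 284612 in gif1 and 356975 to 477110 in wild type. Of the 6, 5 fell, and SWEET11 did not (log2 difference 0.03, limma adjusted p = 0.895). Of 4 measured aleurone and embryo markers, 2 fell and 1 rose (sums 18294 to 20211 in gif1, 43174 to 76005 in wild type). All 4 green pericarp markers rose (58553 to 74880 in gif1, 30650 to 33922 in wild type), as did both secondary-wall cellulose synthases, taken as vascular markers (1407 to 1464 in gif1, 402 to 679 in wild type). No marker was near 0, the dimmest being CESA7 with a mean signal of 384.2. The part of these shifts in the auxin gene differences was not tested.

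Most auxin genes showed no difference that passed the test, and with the values as deposited the few that did were split evenly. That balance depended on the scaling and the fit, as given below. Of the 52 members, 48 had a mean signal above the minimum of 74.1 and were tested. IAA13, ARF9 and ARF24 rose in gif1, IAA18, ARF14 and GH3.4 fell, and 42 did not pass (limma adjusted p under 0.05 over all 28597 probe sets tested). The 6 called members are 12.5% of those tested, against 13.6% of the 15423 tested genes with 1 probe set each and 12.0% of all tested probe sets. By direction, 7.92% of tested genes rose and 5.63% fell. The auxin families thus changed about as often as the array as a whole. Signals of the genotypes did not overlap for 14 of the 48 members (29.2%), against 35.5% of tested genes.

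**Figure D1:**
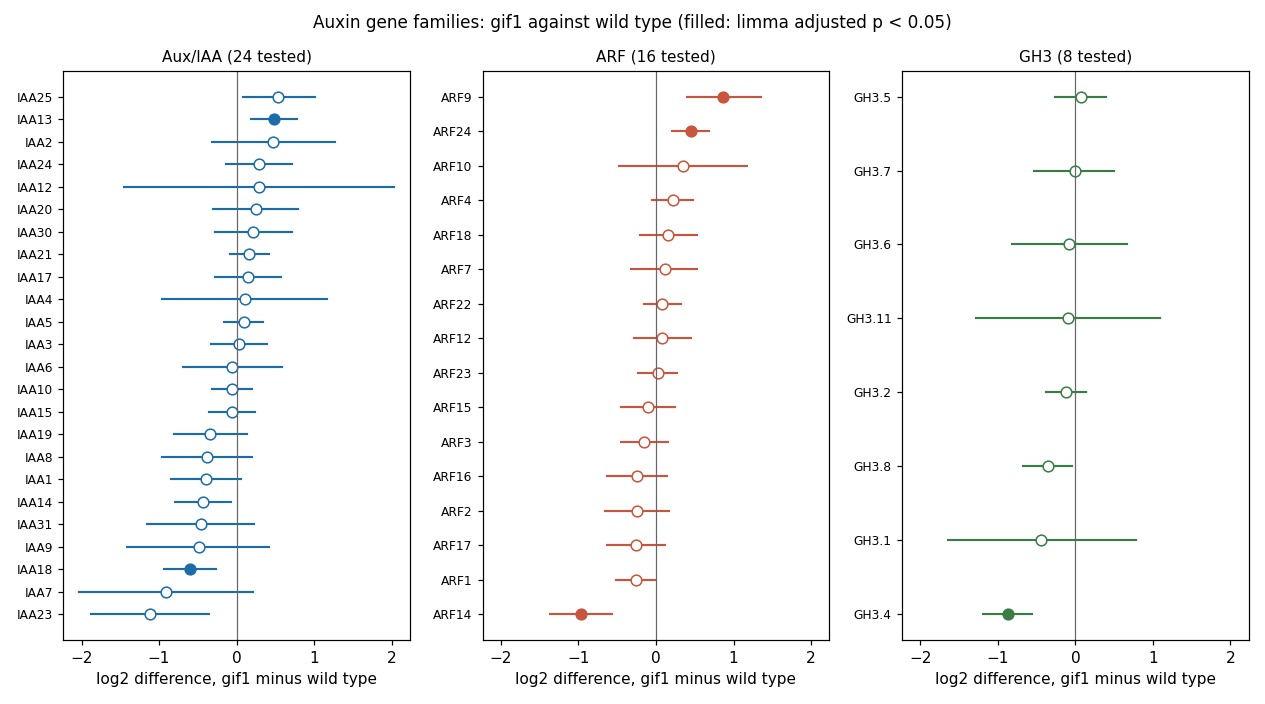
Log2 difference, gif1 minus wild type, for each tested member, with its 95% interval from the limma fit (n = 3 arrays each). Filled points passed at an adjusted p under 0.05. Both directions occur in Aux/IAA and ARF, and the widest interval, that of IAA12, runs from -1.45 to 2.03.

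The families lay close together. The median log2 difference was -0.01 over 24 Aux/IAA genes, 0.05 over 16 ARF genes and -0.11 over 8 GH3 genes, beside 0.03 over all tested genes. Aux/IAA differences ran from -1.12 to 0.54, ARF differences from -0.97 to 0.87 and GH3 differences from -0.87 to 0.07. In the Aux/IAA family 1 gene rose, 1 fell and 22 did not pass, and in the ARF family 2 rose, 1 fell and 13 did not pass. Among GH3 genes none rose (0), 1 fell and 7 did not pass, and by the same limma fit 2 were below an unadjusted p of 0.05. That unadjusted count was 5 of 24 in the Aux/IAA family and 4 of 16 in the ARF family, beside 30.2% of all tested genes. No test of a difference between the families was made. The sign of a family median depends on the scaling: centring each array on its median moved the median of all tested probe sets to 0.28, against -0.06 as deposited, and the 3 family medians to 0.32, 0.39 and 0.23. Scaling to the hybridization spikes moved it to 0.42 and the families to 0.49, 0.55 and 0.34. Relative to the median of all probe sets, the families stood at 0.04, 0.11 and -0.05 as deposited and at 0.07, 0.13 and -0.09 with spike scaling. Spike scaling shifts all probe sets of an array together, so these distances change little by construction. The closer match to the members is the median over tested genes with 1 probe set each, 0.03 as deposited. The Aux/IAA median of -0.01 lay below that reference, though above the median of all probe sets.

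GH3.4 had the smallest p-value of the 48 members and fell. Signals were 1132.9, 1356.0 and 1087.2 in gif1, against 2202.0, 1964.7 and 2421.8 in wild type. Every gif1 array lay below every wild-type array. The means were 1192 ± 144 in gif1 and 2196 ± 229 in wild type (SD, n = 3 each), a log2 difference of -0.87 (SE 0.14, limma adjusted p = 0.00341). It passed with any single array left out, with differences of -0.97 to -0.80 and adjusted p-values up to 0.0237. With spike scaling the difference was -0.37 and did not pass (adjusted p = 0.0859).

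Other GH3 genes moved less or could not be resolved. GH3.8, an enzyme that joins indole-3-acetic acid to aspartate in rice, read 5086.6, 5897.1 and 5821.6 in gif1, against 6214.3, 9016.0 and 6557.9 in wild type. The groups did not overlap, and wild-type replicate 2 stood highest. The log2 difference of -0.36 (SE 0.14) did not pass (limma adjusted p = 0.132), and it was -0.19 without that array. GH3.2, which also conjugates auxin, read 2583.5, 2693.0 and 2672.1 in gif1 and 2682.2, 2818.0 and 3151.7 in wild type. Its difference of -0.12 had a 95% interval of -0.38 to 0.14, so a change as large as that of GH3.4 lay outside it. GH3.5 is JAR1, which conjugates jasmonic acid to isoleucine and not auxin. It read 2164.9, 2196.7 and 2045.5 in gif1, against 1626.1, 2198.3 and 2339.4 in wild type, a difference of 0.07 (interval -0.26 to 0.40). The gif1 values of GH3.5 all lay within the wild-type range. GH3.1 was dim, at 106.5, 21.4 and 118.6 in gif1 and 136.5, 92.4 and 78.9 in wild type, and its interval of -1.65 to 0.78 left even a 2-fold fall unresolved. The intervals of GH3.6 and GH3.7 lay within 2-fold either way, and that of GH3.11 did not.

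**Figure D2:**
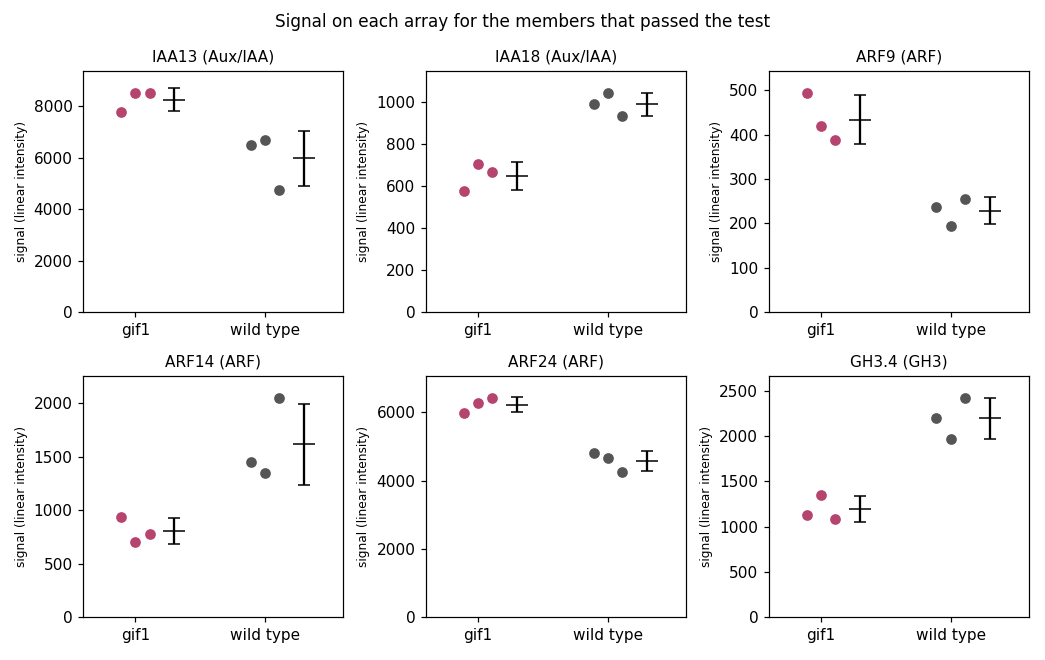
Signal on each array (linear intensity, axis from 0) for the 6 members that passed, gif1 left and wild type right, with the mean and SD of 3 arrays beside the points. In every panel the genotypes do not overlap, and GH3.4 averages 1192 in gif1 and 2196 in wild type.

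Among the ARF genes, which encode the DNA-binding transcription factors, ARF14 fell and ARF9 and ARF24 rose. ARF14 read 936.0, 707.2 and 776.9 in gif1, against 1451.8, 1350.8 and 2048.2 in wild type. Its lowest wild-type array was above its highest gif1 array. The means were 807 ± 117 in gif1 and 1617 ± 377 in wild type (SD, n = 3 each), a log2 difference of -0.97 (SE 0.18, limma adjusted p = 0.00705). It passed with any single array left out (adjusted p up to 0.0362), and stood at -0.48 with spike scaling, where it did not pass (adjusted p = 0.0868). ARF9 read 494.6, 419.3 and 387.0 in gif1, against 237.5, 195.1 and 254.2 in wild type, a rise of 0.87 (SE 0.22, limma adjusted p = 0.0248). The dimmest gif1 array of ARF9 was well above the brightest wild-type one. Leaving out gif1 replicate 1, 2 or 3 (adjusted p = 0.112, 0.0765 and 0.0623) or wild-type replicate 2 (0.0663) ended the ARF9 call, with differences of 0.77 to 0.95.

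ARF24 is known to act with ARF23 as a pair on the promoter of an actin-organizing formin gene in rice. It read 5978.9, 6268.3 and 6414.3 in gif1, against 4819.9, 4649.9 and 4238.2 in wild type. These are tight groups that stood apart, with means of 6220 ± 222 in gif1 and 4569 ± 299 in wild type (SD, n = 3 each). ARF24 thus rose by 0.45 in log2 units (SE 0.11, limma adjusted p = 0.0215). It did not pass without gif1 replicate 1 (adjusted p = 0.0618), 2 (0.0795) or 3 (0.0934) or without wild-type replicate 3 (0.0551), with differences of 0.39 to 0.47. Its partner ARF23 read 4240.4, 4209.1 and 3713.7 in gif1 and 4219.1, 4088.8 and 3684.8 in wild type. The ARF23 values matched closely between genotypes, with a difference of 0.02 (SE 0.12, interval -0.23 to 0.27). A further, dimmer probe set of ARF23 that can bind related transcripts differed by 0.34 (SE 0.15, limma adjusted p = 0.168).

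No other tested ARF gene passed. ARF1 read 2176.2, 2479.8 and 2348.0 in gif1, against 2770.3, 2828.5 and 2806.3 in wild type, and its difference of -0.26 (SE 0.12) did not pass (limma adjusted p = 0.163). The wild-type arrays agreed closely and lay above all gif1 arrays. ARF22 read 3184.0, 3151.2 and 3462.8 in gif1 and 3134.4, 3090.4 and 3032.5 in wild type. Its groups did not overlap either, yet the difference was 0.08 (SE 0.11), smaller than its error. ARF2 and ARF15, the rice genes also called ETTIN, differed by -0.24 (SE 0.19) and -0.10 (SE 0.16). Of the 13 ARF genes that did not pass, 12 had 95% intervals within 2-fold in both directions, ARF10 being the exception (-0.48 to 1.17). ARF13 was below the minimum signal and not tested. It read 78.4, 77.7 and 159.7 in gif1, against 11.3, 39.3 and 16.1 in wild type. Its groups did not overlap, and with no signal filter its difference was 1.62 (SE 0.61, limma adjusted p = 0.176).

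**Figure D3:**
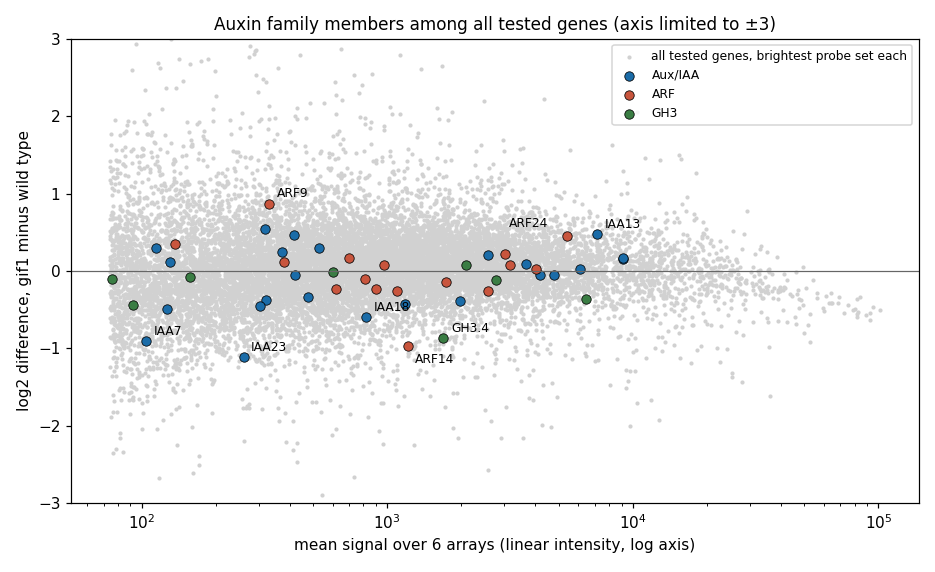
Log2 difference against mean signal (log axis) for all 15423 tested genes with 1 probe set each (grey) and for the 48 tested auxin family members (coloured by family). The members lie within the grey cloud; 90% of all tested genes fall between -0.82 and 0.84.

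In the Aux/IAA family, the repressors, IAA13 rose and IAA18 fell. IAA13, in which a stabilizing mutation impairs lateral root formation in rice, read 7766.4, 8502.8 and 8533.1 in gif1, against 6506.4, 6688.3 and 4731.3 in wild type. The gif1 arrays all lay above the wild-type arrays, of which replicate 3 was lowest. The means were 8267 ± 434 in gif1 and 5975 ± 1081 in wild type (SD, n = 3 each), and the log2 rise was 0.48 (SE 0.14, limma adjusted p = 0.0426). Without wild-type replicate 3 it was 0.32 and did not pass (adjusted p = 0.0982), nor did it without gif1 replicate 1 (0.0904), 2 (0.129) or 3 (0.139). Quantile normalization also ended the IAA13 call (0.44, adjusted p = 0.0660).

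IAA18 read 574.8, 704.4 and 668.5 in gif1, against 989.8, 1044.2 and 935.2 in wild type. The genotypes were clearly apart, with means of 649 ± 66.9 in gif1 and 990 ± 54.5 in wild type (SD, n = 3 each). The log2 difference was -0.60 (SE 0.16), and IAA18 passed as lower (limma adjusted p = 0.0293). The call was lost without gif1 replicate 1 (adjusted p = 0.116), 2 (0.0608) or 3 (0.0833) and without wild-type replicate 2 (0.0806). It was also lost with median centring (-0.26, adjusted p = 0.345) and with spike scaling (-0.10, adjusted p = 0.699).

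IAA23, which maintains the quiescent centre of rice roots, had the largest difference of the 48 members and did not pass. Its brightest probe set read 239.1, 165.6 and 84.3 in gif1, against 466.6, 282.5 and 322.1 in wild type. The groups did not overlap but spread widely, and the difference was -1.12 (SE 0.35, limma adjusted p = 0.0574). That probe set can also bind related transcripts. The probe set of IAA23 next in signal read 73.2, 70.3 and 139.6 in gif1, against 204.0, 153.1 and 200.7 in wild type. It too was lower on every gif1 array (log2 difference -0.91, SE 0.37, limma adjusted p = 0.130). With the tested probe sets of a gene averaged, IAA23 passed as lower (-1.01, adjusted p = 0.0394), and it also did without gif1 replicate 1 (-1.42, adjusted p = 0.0471).

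IAA14 read 939.1, 988.5 and 1073.6 in gif1, against 1406.6, 1098.0 and 1597.0 in wild type. The lowest wild-type array came close to the highest gif1 array, and the difference of -0.43 (SE 0.16) did not pass (limma adjusted p = 0.111). IAA25, named after its values were seen, stood on the other side, with 399.2, 362.7 and 382.2 in gif1, against 289.1, 220.5 and 262.0 in wild type (0.54, SE 0.21, limma adjusted p = 0.116). Its genotypes did not overlap. IAA17 read 10078.3, 8138.5 and 10102.6 in gif1, against 12073.3, 7942.0 and 6362.4 in wild type. The wild-type range of IAA17 enclosed the gif1 values, and the difference was 0.15 (SE 0.19). IAA21 read 9260.5, 9964.8 and 9587.6 in gif1, against 9983.7, 8106.3 and 7769.2 in wild type, also overlapping (0.16, SE 0.12). IAA17 and IAA21, with IAA13, had the highest signals of the family's probe sets. Signals of different probe sets are not on a common scale, so no order of expression is drawn from them.

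Of the 22 Aux/IAA genes that did not pass, 14 had intervals within 2-fold and 8 did not, among them IAA2, IAA4, IAA7, IAA9, IAA12 and IAA31. IAA7 was lower on every gif1 array (69.9 ± 40.2 in gif1 and 139 ± 58.1 in wild type, SD, n = 3 each), but its error was large (-0.91, SE 0.51). Its mean passed the signal minimum through the wild-type arrays, as did that of GH3.11. The adjacent genes IAA30 and IAA31 differed by 0.21 (SE 0.23) and -0.46 (SE 0.32), neither passing (limma adjusted p = 0.573 and 0.374). IAA16 and IAA26, with mean signals of 13.8 and 37.7, were below the minimum, as was GH3.9 (24.5), which read 113.9 on wild-type replicate 1 and at most 9.7 on any other array.

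Standard errors were larger for dimmer members. The median standard error of the log2 difference was 0.49 among the 9 members with a mean signal under 300, 0.21 among the 17 between 300 and 1000, and 0.14 among the 22 at or above 1000. None of the first group passed (0), 2 of the second did and 4 of the third. Over all tested genes 13.6% passed, and that share was not computed by signal. No trend in calls is therefore drawn from these counts. Intervals reached beyond 2-fold for 8 of the 9 dimmest members, and over all 3 families 31 of the 42 members that did not pass had intervals within 2-fold. For 10 members the array carries more than 1 such probe set. Of their 13 further probe sets 8 were tested and none passed (0), and IAA23 was the one member for which a further probe set had groups that did not overlap. None of the 6 called members has a further probe set, so each of these calls rests on 1. Like the brightest probe set of IAA23, those of IAA4 and GH3.11 can also bind related transcripts. The probe set of IAA17 is of a type that can match more than 1 transcript.

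**Figure D4:**
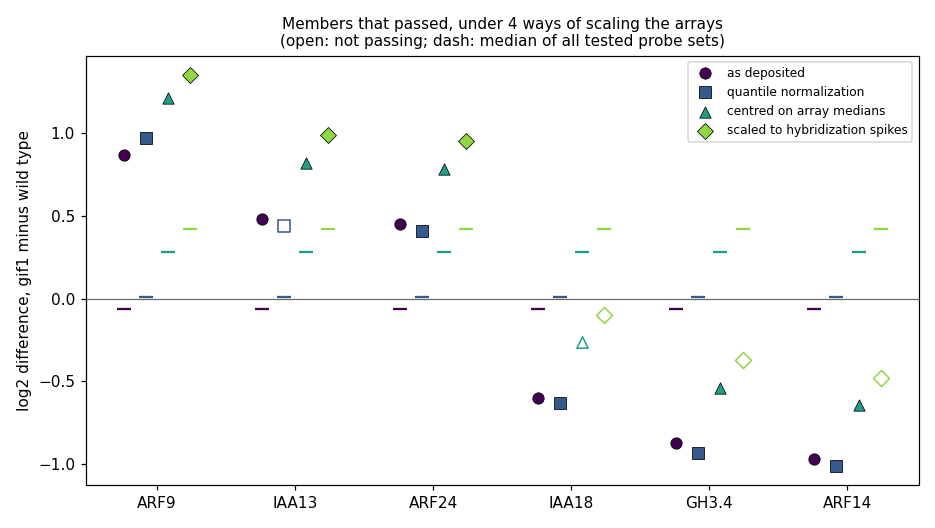
Log2 difference, gif1 minus wild type, of the 6 members that passed, under 4 ways of scaling the arrays. Open symbols did not pass and dashes mark the median of all tested probe sets under that scaling; ARF14 stands at -0.97 as deposited and -0.48 with spike scaling, where the dash moves to 0.42.

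The 6 called members kept their direction under spike scaling, median centring and quantile normalization, while the calls did not all hold. Spike scaling and median centring moved differences upward, so IAA13, ARF9 and ARF24 could not have reversed under them. With median centring 7 members rose (IAA13, IAA21, IAA24, IAA25, ARF4, ARF9 and ARF24) and 2 fell (ARF14 and GH3.4). With spike scaling 20 rose and 0 fell, and at the same time 95.2% of all calls on the array were rises, against 49.9% as deposited and 90.5% with median centring. Median centring and spike scaling shift all probe sets of an array together, so distances from the median of all probe sets change little by construction. Quantile normalization can change them: GH3.4 then stood 0.94 below that median, against 0.82 as deposited, and IAA13 0.43 above it, against 0.54.

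Around these families, other genes of auxin metabolism, transport and response were taken by name: 21 matched, 17 had a single-gene probe set and 15 were tested. Of these 1 rose (SAUR39), 2 fell (ILL6 and ILL8) and 12 did not pass, where 7.92% of all tested genes rose and 5.63% fell. The median difference of the 15 was -0.15, beside 0.03 over all tested genes. With so few genes these shares are a description, and no test between roles was made. ILL genes are named as hydrolases of the ILR1-like group, which free auxin from its amino acid conjugates in Arabidopsis. ILL8 read 1273.5, 1237.3 and 1365.0 in gif1, against 2416.0, 2340.4 and 2300.5 in wild type. Each group was tight and they did not overlap. The means were 1292 ± 65.8 in gif1 and 2352 ± 58.7 in wild type (SD, n = 3 each), a difference of -0.86 (SE 0.12, limma adjusted p = 0.00167), and it passed with any single array left out (adjusted p up to 0.0129). With spike scaling it was -0.36 and did not pass (adjusted p = 0.115).

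ILL7, which lies next to ILL8 in the genome, read 855.4, 1266.2 and 1129.6 in gif1, against 1311.0, 1566.4 and 1501.5 in wild type, lower on every gif1 array without passing (-0.44, SE 0.17, limma adjusted p = 0.113). ILL6 read 218.7, 196.5 and 110.2 in gif1, against 361.7, 297.0 and 388.6 in wild type. The groups did not overlap, and the difference of -0.97 (SE 0.28) only just passed (limma adjusted p = 0.0475). The ILL6 call was lost with any 1 array left out: without gif1 replicate 1, 2 or 3 the adjusted p was 0.0643, 0.0827 or 0.154, and without wild-type replicate 1, 2 or 3 it was 0.0756, 0.0701 or 0.121. ILL1 and ILL5 differed by 0.05 (SE 0.12) and -0.03 (SE 0.13). DAO, the dioxygenase that oxidizes auxin, read 9086.3, 8339.1 and 9579.4 in gif1, against 5623.1, 9686.4 and 22868.2 in wild type. Wild-type replicate 3 stood far above the other arrays for DAO, and the difference was -0.26 (SE 0.36).

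SAUR39, a small auxin-induced gene whose product lowers auxin synthesis and transport in rice, read 2547.5, 2569.4 and 1925.4 in gif1, against 1108.9, 1742.9 and 1221.3 in wild type. The genotypes did not overlap, with means of 2347 ± 366 in gif1 and 1358 ± 338 in wild type (SD, n = 3 each). The rise was 0.80 (SE 0.18, limma adjusted p = 0.0181), and it did not pass without gif1 replicate 1 (adjusted p = 0.0811) or 2 (0.0770). On the side of synthesis, the tryptophan aminotransferase TAR2, also called FIB, read 878.8, 703.1 and 1148.1 in gif1 and 1637.4, 1069.8 and 971.0 in wild type. Its groups overlapped (-0.41, SE 0.22, limma adjusted p = 0.254), as did those of YUCCA1, a flavin monooxygenase of the next step. YUCCA1 was dim, at 50.0, 13.7 and 119.8 in gif1 and 39.5, 87.0 and 154.1 in wild type, with an interval of -2.08 to 0.87. Its mean passed the signal minimum through the wild-type arrays, and its probe set can also bind related transcripts. A further YUCCA1 probe set, below the minimum and not tested, did not overlap. It read 2.7, 42.3 and 13.1 in gif1, against 81.0, 44.6 and 60.0 in wild type.

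The auxin efflux carriers PIN3A, PIN5C and PIN6 differed by 0.01 (SE 0.29), -0.05 (SE 0.26) and -0.15 (SE 0.29), and PIN2 and PIN9 were below the minimum. PIN6 read 157.1, 297.5 and 341.4 in gif1 and 289.9, 241.4 and 318.7 in wild type. PIN5C read 530.0, 455.9 and 441.6 in gif1 and 381.8, 395.3 and 782.9 in wild type, with wild-type replicate 3 far above the rest. The genotypes overlapped for both. SGT1, a co-chaperone of the ubiquitin ligases to which the TIR1 receptor belongs, read 9429.4, 9323.0 and 8804.8 in gif1 and 7064.8, 7897.9 and 8249.7 in wild type. Every gif1 array of SGT1 was above every wild-type array, and the difference of 0.25 (SE 0.10) did not pass (limma adjusted p = 0.145).

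**Figure D5:**
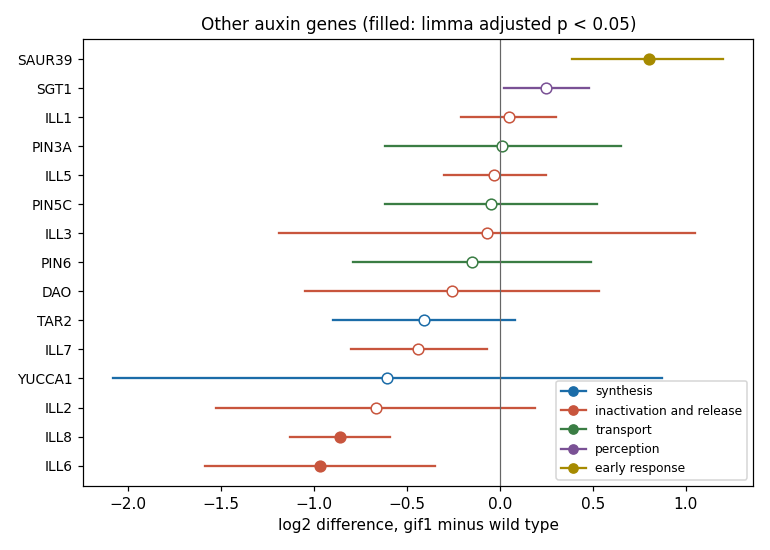
Log2 difference, gif1 minus wild type, with 95% interval (limma, n = 3 arrays each) for the 15 other auxin genes tested, coloured by role. Filled points passed: SAUR39 rose (0.80), and ILL8 (-0.86) and ILL6 (-0.97) fell.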

How the data were processed

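Biotin-labelled RNA of caryopses was measured on 6 Affymetrix arrays. The deposited values are linear signal intensities, 1 per probe set, made by the authors with GCOS 1.4, per the submitters' processing notes; its settings for background, summarization and scaling are not given in the sources used here. Columns were tied to samples by their own labels, with 0 left over. After 187 control probe sets were removed, 57194 remained. Signals were taken as log2(signal + 17.7), the 25th percentile of all values, which understates changes of dim genes. Those whose mean signal reached 74.1 (the median probe set) entered the test, limma 3.58.1 under R 4.3.3 (intensity trend, genotype as the only term, Benjamini-Hochberg adjustment over 28597, threshold 0.05). Where a gene has several single-gene probe sets, the brightest over the 6 arrays stands for it. Names come from RefSeq's ASM3414082v1 table; no coordinates are printed because the build of the arrays is unknown. For arrays, their number limits the precision. The fit was also run on simulated data with independent noise and no array-wide shift between genotypes. That run cannot speak to the scaling of these arrays. Python 3.11.15 with matplotlib 3.10.9 made the figures.

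Values per array are given for members that passed, the 4 smallest p-values and 3 highest signals of each family, and other auxin genes that passed or had the 2 smallest p-values of their role. IAA7, IAA25, ARF13, ILL7, DAO and genes named by counts or intervals were added after their values were seen. The members and lists were chosen with earlier results of these data known. Of 17 markers, 16 were matched. Alternatives changed the offset, filter, scaling, variance model, probe set rule and arrays used. The labels name no pairing of samples by replicate number, and the main fit used none.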

Additional observations from a re-analysis of the deposited data

How the results depend on the processing

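All called genes kept their direction under every alternative run, but for most runs this was fixed in advance. The groups of these genes did not overlap. Leaving out an array or changing the offset, filter, variance model or block therefore could not reverse them. Median centring and spike scaling moved differences upward, so under them only genes that fell could have reversed. Of the alternative values for the named genes, 47 no longer passed, 11 newly passed and 390 kept their side of the threshold, and none of the called ones changed sign (0). Counts are given as higher and lower in gif1, for the families (3 and 3 as reported), the other auxin genes (1 and 2) and all probe sets (1709 and 1716). With spike scaling they were 20 and 0, 4 and 0, and 9576 and 480. With median centring they were 7 higher family members, 2 and 1 of the other genes, and 5817 and 613 probe sets; centring on the median of tested probe sets, chosen after seeing the data, gave 1884 and 1547. Without the intensity trend they were 0 and 1 (GH3.4, limma adjusted p = 0.0498), 0 and 1 (ILL8), and 368 and 416. Without the signal filter 1 family member rose (ARF24), 1 other gene fell and 1122 probe sets fell. Among the other genes 1 fell (ILL8) with array weights, quantile normalization or the replicate block. Leaving out 1 array in turn gave 0 to 3 and 2 to 4 family members, 0 to 1 and 1 to 1 other genes, and 727 to 2289 and 709 to 2005 probe sets; the cause was not tested beyond the fewer arrays in each fit. Same-numbered gif1 and wild-type arrays did not deviate together (correlations across probe sets of -0.034, 0.022 and -0.047). A pairing that left no array-wide deviation would not show in these correlations. With the replicate block 2 family members rose and 3 fell, IAA13 (adjusted p = 0.0549) and IAA18 (0.0505) no longer passing and IAA23 newly passing as lower (0.0403). Of the 9 members with a mean signal under 300, 8 had intervals beyond 2-fold. Signal over background was not measured here.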
